A study of Mus musculus with 12 samples.

Results

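The 8 genes described here act in plasminogen activation and blood clotting, and were measured in Pdgfra+ cells from fibrotic and healthy mouse lung. They were chosen by symbol from the 40760 genes counted: the plasminogen activators Plat and Plau, the urokinase receptor Plaur, the protease inhibitor Serpine2, tissue factor F3, the thrombin receptor F2r, thrombomodulin Thbd and the A subunit of factor XIII, F13a1. All 8 were found, and all 8 passed the filter on low counts that left 17418 genes for testing. The lowest raw count of any of them in any library was 35, for F13a1.

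Cells were sorted from the lungs of male mice, in general aged 8 to 12 weeks and of C57BL/6 background, by flow cytometry for Pdgfra (CD140a), a surface receptor of lung fibroblasts, and bulk RNA-seq was made from the sorted cells. There were 4 groups of 3 libraries. WT vehicle and WT bleo came from wild-type mice given vehicle or bleomycin (bleo), a drug that injures the lung epithelium and leads to fibrosis. Pear1-/- vehicle and Pear1-/- bleo came from mice labelled as knockouts of Pear1, which encodes a platelet and endothelial receptor. The knockout was made as a knockout-first allele, in which a gene-trap cassette sits in an intron and cuts the transcript short, and it was carried in all cells of the mouse rather than in fibroblasts alone. The day after bleo and the number of mice behind each library were not given for these libraries in the sources used here, so p-values measure the spread between these libraries, which may be technical.

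Plasmin, made from plasminogen by the tissue-type activator (encoded by Plat) and the urokinase-type activator (encoded by Plau), dissolves fibrin and degrades matrix. Serpins such as Serpine2 block these activators, and Plaur holds urokinase at the cell surface. On the clotting side, tissue factor starts the cascade that makes thrombin, thrombin signals to fibroblasts through F2r (PAR1), thrombomodulin turns thrombin towards its anticoagulant role, and factor XIII crosslinks fibrin. In injured lung, fibrin is laid down in the airspaces, and poor removal of it is a known feature of fibrosis.

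The genes lie on 7 chromosomes of the mouse assembly GRCm38 (GENCODE M21). Serpine2 is at chr1:79794197-79861180 (minus strand), Thbd at chr2:148404466-148408188 (minus), F3 at chr3:121723537-121735048 (plus), Plaur at chr7:24462484-24475968 (plus), Plat at chr8:22757727-22782844 (plus), F13a1 at chr13:36867178-37050244 (minus), F2r at chr13:95601803-95618487 (minus) and Plau at chr14:20836660-20843385 (plus). Only F13a1 shares exon sequence with another annotated gene, the antisense transcript Gm30489, and reads of the pair cannot be told apart without strand. Thbd is a single exon of 3723 bases, while F13a1 has 18 merged exons.

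Upstream sequence is shown for 4 members whose transcripts moved in pairs: F3 and F2r, which were both lower after bleo, and Serpine2 and F13a1, which were both higher. The sequences are RefSeq windows (GRCm38.p6) that end at the base before the transcription start and are cut back where GENCODE places an exon. They are written 5′ to 3′ on the strand of the gene. Capitals mark matches to AP-1 (TGANTCA, the same on both strands), the GC box (GGGCGG) and the CCAAT box, each on either strand.
F3, chr3:121723287-121723536, plus strand: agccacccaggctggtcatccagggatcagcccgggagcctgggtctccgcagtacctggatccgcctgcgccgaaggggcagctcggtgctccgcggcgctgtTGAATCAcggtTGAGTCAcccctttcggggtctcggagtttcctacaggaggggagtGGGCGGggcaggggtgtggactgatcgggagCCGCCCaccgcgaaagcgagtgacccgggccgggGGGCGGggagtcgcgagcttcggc
F2r, chr13:95618488-95618716, minus strand: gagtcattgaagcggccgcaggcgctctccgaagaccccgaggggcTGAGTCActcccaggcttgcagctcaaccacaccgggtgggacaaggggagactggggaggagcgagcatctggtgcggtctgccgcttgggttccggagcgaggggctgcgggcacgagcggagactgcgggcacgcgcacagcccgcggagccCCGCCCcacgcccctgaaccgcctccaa
Serpine2, chr1:79858697-79858915, minus strand: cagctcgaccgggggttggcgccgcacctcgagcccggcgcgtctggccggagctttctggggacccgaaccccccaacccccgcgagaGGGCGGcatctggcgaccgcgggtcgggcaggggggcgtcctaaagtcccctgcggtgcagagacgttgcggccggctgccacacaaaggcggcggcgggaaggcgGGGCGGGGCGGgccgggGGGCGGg
F13a1, chr13:37050245-37050494, minus strand: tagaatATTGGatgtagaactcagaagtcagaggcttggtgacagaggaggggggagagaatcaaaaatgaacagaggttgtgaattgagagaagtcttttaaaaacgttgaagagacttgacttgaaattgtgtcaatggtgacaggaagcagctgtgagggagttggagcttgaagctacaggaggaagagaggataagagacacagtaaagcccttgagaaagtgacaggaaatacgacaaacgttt

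The F3 window held 2 AP-1 matches, 146 and 135 bases before the start, and the F2r window held 1, 204 bases before it. AP-1 matches were in 6.75% of the 32851 windows of 250 bases in the table. Neither Serpine2 nor F13a1 had one. The 250-base window of Serpine2 held 6 GC box matches, some overlapping, against a share of 32.7% of all windows with at least 1, and the F13a1 window shown held 1 CCAAT match (33.8% of windows). A second F13a1 window in the table, for a start inside the gene, held none of these motifs. Plaur, the other member with a window, had 1 AP-1 match 69 bases before the start and 3 GC boxes. No TATAAA (12.4% of windows) or GGAATG, the TEAD motif (12.6%), was found on either strand in any window of a member. These matches are letters in a window and were not measured as binding.

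Total counts ran from 6702948 to 10447101 per library, so 3 counts were worth 0.287 to 0.448 CPM (counts scaled to a fixed library total). Pear1 itself did not separate the genotypes in vehicle (547 ± 28.8 normalized counts in WT, 519.7 ± 24 in Pear1-/-, SD, n = 3; log2 fold change -0.08, adjusted p = 0.47), and a gene-level count of a trapped allele can include exons ahead of the trap; the groups are therefore named as labelled. With bleo Pear1 was at 254 ± 14 in WT and 357 ± 14.2 in Pear1-/-, higher in the libraries labelled as knockouts (log2 fold change 0.48, adjusted p = 0.00012). Pear1 was thus not called lower in Pear1-/- in vehicle or with bleo, and the cause was not tested. Exons of Pear1 overlap those of Lrrc71 on the same strand, so its counts are uncertain. The library WT vehicle replicate 2 stood apart. Over 10454 genes its root mean square log2 difference was 0.474 and 0.484 from the other WT vehicle libraries and 0.162 to 0.194 from the Pear1-/- vehicle libraries, while other pairs within a group differed by 0.146 to 0.231. Results that rest on WT vehicle are given with and without it where it matters. Pdgfra fell from 4565 ± 325 normalized counts in WT vehicle to 1360.1 ± 29.9 in WT bleo, and was 2392 ± 18.8 in Pear1-/- bleo. The defining leukocyte gene Ptprc (CD45), the epithelial gene Sftpc and the collagen genes were counted in all 4 groups.

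In WT mice, bleo was followed by a change in all 8 members, 4 higher and 4 lower by edgeR's quasi-likelihood test (adjusted p under 0.05, Benjamini-Hochberg over all genes tested). Plau, Serpine2, F13a1 and Plaur rose, and F3, Thbd, F2r and Plat fell. Of all genes tested, 31.4% were higher and 36.6% were lower in this comparison, so a call alone was common. In Pear1-/- mice, 3 members rose and 3 fell, against 28.9% and 33.4% of all genes. Between the bleo groups, 6 members were higher and 1 was lower in Pear1-/- than in WT, against 22.1% and 23.9% of all genes. The median log2 fold change of the members was 0.76 in that comparison, beside -0.01 over all genes. These comparisons share groups with each other and are not independent. The members were chosen with earlier results of these data known, so their counts and median are descriptions.

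**Figure D1:**
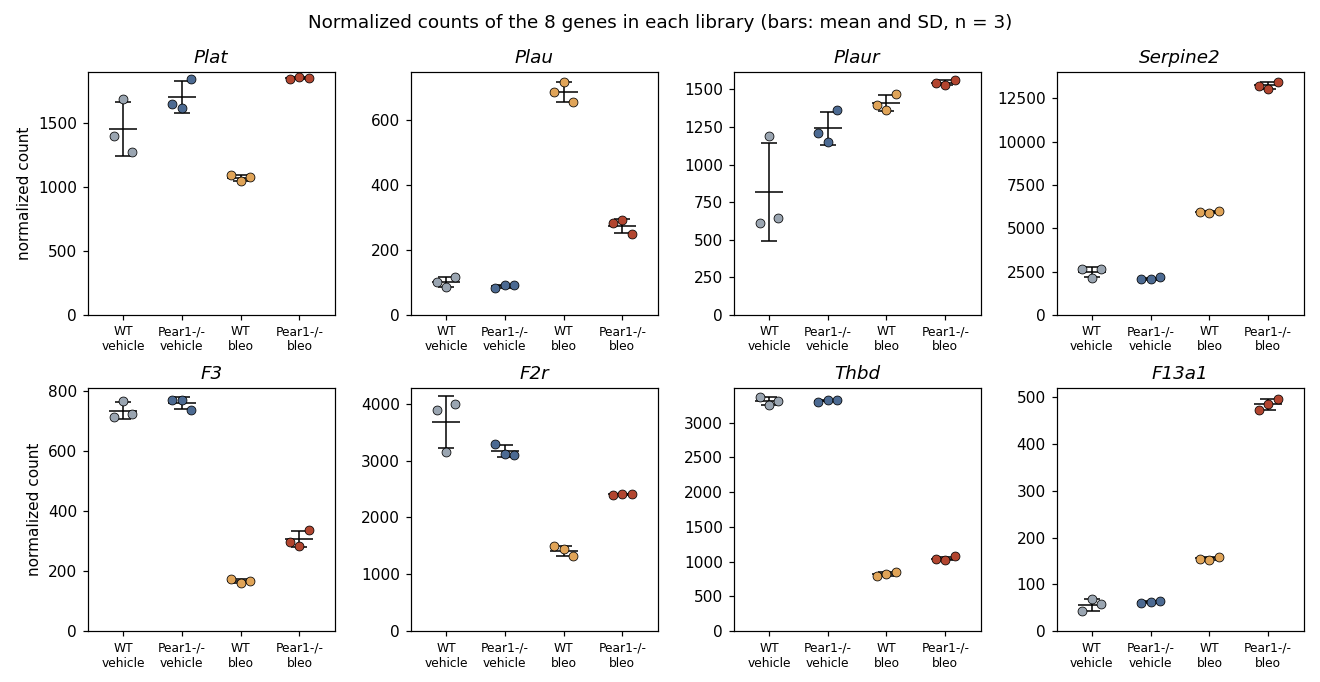
Normalized counts (y axis, from 0) of the 8 members in each of the 12 libraries, by group (x axis); points are libraries, and bars are the mean and SD of 3. Serpine2 and F13a1 are highest in Pear1-/- bleo, Plau is highest in WT bleo, and Plaur in WT vehicle has 1 library at 1191 beside 612 and 645.

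The activators moved apart. Plau, which encodes the urokinase-type activator, was counted at 99.4, 86.2 and 116 in WT vehicle and at 687, 716 and 656 in WT bleo. In Pear1-/- mice it went from 81.4, 90.9 and 90.6 to 281, 291 and 249.7. The groups did not overlap in either genotype, and every WT bleo library was above every Pear1-/- bleo library. Plau was 6.9-fold higher after bleo in WT (log2 fold change 2.79, SE 0.104, adjusted p = 5.35e-12) and 3.14-fold higher in Pear1-/- (1.65, SE 0.109, adjusted p = 5.3e-09). Its level in Pear1-/- bleo was 0.397 of that in WT bleo (log2 fold change -1.33, SE 0.0908, adjusted p = 1.72e-08), and it was the only member lower there.

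Plat, which encodes the tissue-type activator, was counted at 1396, 1693 and 1278 in WT vehicle and at 1095, 1044 and 1076 in WT bleo. Its counts were 1647, 1619 and 1849 in Pear1-/- vehicle and 1847, 1861 and 1854 in Pear1-/- bleo. The WT groups did not overlap, while the highest Pear1-/- vehicle library lay inside the narrow range of Pear1-/- bleo. Plat fell in WT (log2 fold change -0.43, SE 0.091, adjusted p = 0.000667), and without WT vehicle replicate 2 the value was -0.24 (adjusted p = 0.000979). In Pear1-/- the value of 0.13 did not pass the test (95% interval -0.08 to 0.33, adjusted p = 0.236). Plat was 1.71-fold higher in Pear1-/- bleo than in WT bleo (log2 fold change 0.78, SE 0.0908, adjusted p = 5.18e-06).

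Set on one scale by CPM per kilobase of exon, Plau made up 11.8% to 19.3% of the Plau and Plat transcripts in WT vehicle and 11.4% to 12.9% in Pear1-/- vehicle. After bleo its share was 61.6% to 64.4% in WT and 26.2% to 29.2% in Pear1-/-. Plat was thus the more abundant activator transcript in every library but those of WT bleo. The ranges of the groups overlapped between WT vehicle and Pear1-/- vehicle, through WT vehicle replicate 2 (11.8%, beside 15.8% and 19.3% in the other WT vehicle libraries), and between no other pair. Without that library the vehicle groups did not overlap either. With all libraries kept, an exact permutation test of 3 libraries against 3 cannot give a two-sided p below 0.1.

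Monocyte and macrophage markers moved with Plau. The summed level of the 12 genes of that list was 1802 to 2119 CPM (WT) and 2055 to 2207 CPM (Pear1-/-) with vehicle. With bleo it was 13997 to 14126 CPM (WT) and 5725 to 5945 CPM (Pear1-/-). Lyz2 alone was at 8405 to 8592 CPM in WT bleo. Of the 12 genes, 10 rose and 1 fell with bleo in WT (31.4% and 36.6% of all genes). In Pear1-/- 10 rose and 1 fell (28.9% and 33.4%), and 10 were lower in Pear1-/- bleo than in WT bleo (23.9%). None of the 12 was at 0 throughout a group. Csf1r, the receptor that defines the lineage, was counted at 1237 ± 24.6 in WT vehicle, 10385 ± 159 in WT bleo and 3964 ± 26.6 in the Pear1-/- libraries given bleo (SD, n = 3). The part of macrophage RNA in the Plau values was not tested. In these bulk samples fewer cells of a type and less RNA per cell cannot be told apart.

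**Figure D2:**
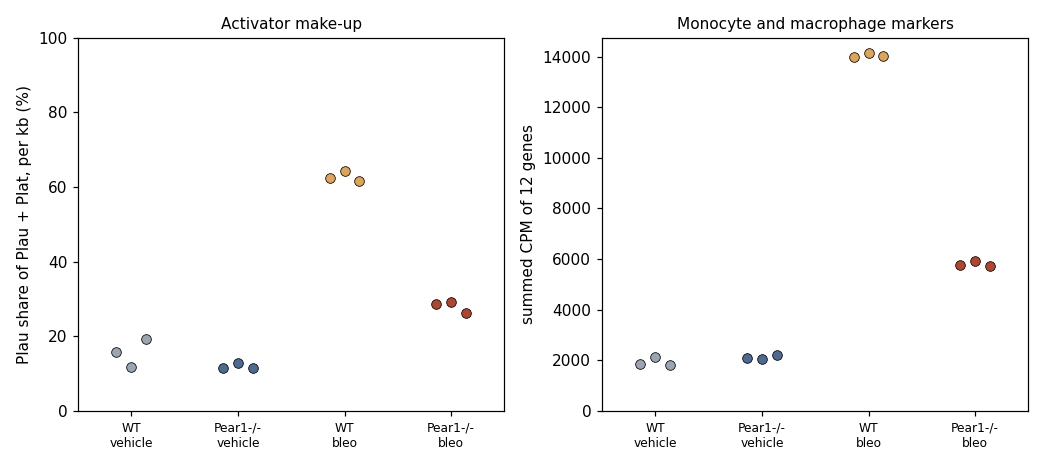
Left, the share of Plau in the sum of Plau and Plat, both per kilobase of exon (y axis, percent), in each library by group; right, the summed CPM of the 12 monocyte and macrophage markers in the same libraries. Both are highest in WT bleo and intermediate in Pear1-/- bleo.

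Plaur encodes the receptor that holds urokinase at the cell surface. With vehicle it was counted at 612, 1191 and 645 (WT) and at 1208, 1150.3 and 1364 (Pear1-/-). With bleo the counts were 1395, 1363 and 1467 (WT) and 1544, 1527 and 1563 (Pear1-/-). The library WT vehicle replicate 2 lay within the range of the Pear1-/- vehicle libraries. Neutrophils are known to carry much Plaur, and the 4 neutrophil markers summed to 485, 1665 and 482 CPM in WT vehicle, 1561 to 1977 in Pear1-/- vehicle and 157 to 239.7 after bleo; none of the 4 was at 0 throughout a group, and their part in the Plaur values was not tested. Plaur rose with bleo in WT by 0.80 on the log2 scale (SE 0.177, adjusted p = 0.000963), and by 1.24 without that library (adjusted p = 1.22e-19). In Pear1-/- the value was 0.32 (95% interval -0.08 to 0.72, adjusted p = 0.12), although the groups did not overlap. The bleo groups did not overlap either, but their difference of 0.12 did not pass the test (95% interval -0.28 to 0.52, adjusted p = 0.602). Fitted on the 2 groups compared alone, without the spread of WT vehicle, both passed, at 0.31 (adjusted p = 0.000115) and 0.13 (adjusted p = 0.00255).

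Serpine2 encodes protease nexin-1, a serpin that inhibits thrombin, urokinase and tissue-type activator. Its counts were 2664, 2128 and 2647 in WT vehicle and 2063, 2046 and 2163 in Pear1-/- vehicle, ranges that overlap only through WT vehicle replicate 2. After bleo they were 5939, 5877 and 5999 in WT and 13213, 13075 and 13467 in Pear1-/-, with no overlap between the bleo groups or with vehicle. Serpine2 rose 2.41-fold in WT (log2 fold change 1.27, SE 0.0788, adjusted p = 1.66e-09) and 6.36-fold in Pear1-/- (2.67, SE 0.0823, adjusted p = 1.19e-12). It was 2.21-fold higher in Pear1-/- bleo than in WT bleo (log2 fold change 1.14, SE 0.0781, adjusted p = 1.74e-08).

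F3 encodes tissue factor, which starts the clotting cascade when it meets factor VII. It was counted at 711, 764 and 724 in WT vehicle and at 769, 769 and 736 in Pear1-/- vehicle. After bleo the counts were 173, 159 and 168 in WT, and 297, 285 and 337 in Pear1-/-. All bleo libraries were below all vehicle libraries, and the bleo groups did not overlap. F3 fell 4.36-fold in WT (log2 fold change -2.12, SE 0.0799, adjusted p = 5.54e-12) and 2.47-fold in Pear1-/- (-1.30, SE 0.0746, adjusted p = 1.07e-09). It was 1.82-fold higher in Pear1-/- bleo than in WT bleo (log2 fold change 0.86, SE 0.0817, adjusted p = 5.99e-07).

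F2r encodes PAR1, the main thrombin receptor of fibroblasts. With vehicle the counts were 3883, 3157 and 3997 (WT) and 3288, 3119 and 3093 (Pear1-/-). With bleo they were 1494, 1436 and 1320.2 (WT) and 2401, 2407 and 2404 (Pear1-/-). The vehicle groups overlapped only through WT vehicle replicate 2 (3157), and the Pear1-/- bleo libraries sat between vehicle and WT bleo. The fall was 2.58-fold in WT (log2 fold change -1.37, SE 0.0872, adjusted p = 2.39e-09) and 1.31-fold in Pear1-/- (-0.39, SE 0.0855, adjusted p = 0.000978). Between the bleo groups F2r was 1.68-fold higher in Pear1-/- (log2 fold change 0.75, SE 0.0864, adjusted p = 4.49e-06).

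Thbd encodes thrombomodulin, the thrombin cofactor that leads to protein C activation. The vehicle counts were 3367, 3252 and 3314 in WT and 3304, 3329 and 3319 in Pear1-/-, ranges that overlap. After bleo it was counted at 799, 819 and 848 in WT and at 1034, 1023 and 1075 in Pear1-/-. Thbd fell 4-fold in WT (log2 fold change -2.00, SE 0.0634, adjusted p = 8.25e-13) and 3.17-fold in Pear1-/- (-1.66, SE 0.0625, adjusted p = 9.27e-12). The bleo groups did not overlap, and Thbd was 1.26-fold higher in Pear1-/- bleo (log2 fold change 0.33, SE 0.0621, adjusted p = 0.000446). Thbd is well known from endothelium, and 7 of 8 endothelial markers also fell with bleo in each genotype, from a summed 417 to 585 CPM in vehicle to 238 to 281 after bleo; their part in the Thbd values was not tested. Thbd per kilobase stood at 97.9 to 101.9 CPM in WT vehicle.

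F3, F2r and Thbd also moved alongside Pdgfra, whose log2 fold change was -1.74 in WT, -0.80 in Pear1-/- and 0.80 between the bleo groups (SE 0.0678, 0.066 and 0.0666). The part of a changed make-up of the sorted cells in these values was not tested.

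F13a1 encodes the catalytic subunit of factor XIII, the transglutaminase that crosslinks fibrin. It was the least abundant member, at 42.4, 68.0 and 57.2 in WT vehicle and 60.6, 63.1 and 64.4 in Pear1-/- vehicle. After bleo its counts were 155, 152 and 159 in WT and 473, 487 and 497 in Pear1-/-. No bleo library overlapped a vehicle library, and the bleo groups were far apart. F13a1 rose 2.77-fold in WT (log2 fold change 1.47, SE 0.126, adjusted p = 7.45e-08) and 7.76-fold in Pear1-/- (2.96, SE 0.111, adjusted p = 9.27e-12). Its level was 3.09-fold higher in Pear1-/- bleo than in WT bleo (log2 fold change 1.63, SE 0.098, adjusted p = 4.82e-09), the highest value of any member in that comparison.

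Monocytes, macrophages and platelets are known sources of F13a1. Of the 12 macrophage markers given above, 10 rose with bleo in each genotype, as F13a1 did, and their sum was lower in Pear1-/- bleo than in WT bleo, whereas F13a1 was higher. The platelet and megakaryocyte list summed to 38.1 to 41.1 CPM in vehicle, 77.3 to 81.4 in WT bleo and 43.2 to 44.4 in Pear1-/- bleo. Of its 7 tested genes, 1 rose and 6 fell with bleo in each genotype. The 1 that rose was Pf4, at 614 ± 10.1 normalized counts in WT bleo and 264 ± 7.21 in Pear1-/- bleo, while Itga2b, the integrin of platelets, was at 40.9 ± 9.75 and 71.2 ± 10.36. The 8 fibroblast markers, which include the collagens Col1a1 and Col3a1, summed to 16813 to 18721 CPM in WT vehicle and 12526 to 12638 in WT bleo, and to 18559 to 19310.0 CPM in Pear1-/- vehicle and 32568 to 33547 in Pear1-/- bleo. With bleo 2 of the 8 rose and 6 fell in WT, 3 rose and 5 fell in Pear1-/-, and 5 were higher in Pear1-/- bleo than in WT bleo. The part of any of these cell types in the F13a1 and Serpine2 values was not tested.

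The response to bleo differed between the genotypes, by a test of the interaction, for 7 of 8 members: 6 had a higher and 1 a lower log2 change in Pear1-/-, against 17.9% and 19.1% of all genes. The difference in log2 change was 1.48 for F13a1 (SE 0.175, adjusted p = 1.24e-05), 1.40 for Serpine2 (SE 0.11, adjusted p = 3.07e-07) and 0.97 for F2r (SE 0.121, adjusted p = 2.18e-05). It was 0.82 for F3 (SE 0.109, adjusted p = 3.79e-05), 0.56 for Plat (SE 0.128, adjusted p = 0.00338) and 0.33 for Thbd (SE 0.0867, adjusted p = 0.00719). For Plau it was -1.14 (SE 0.154, adjusted p = 4.63e-05). The call for Thbd was lost, with the same direction, when any of 8 of the 12 libraries was left out (the values lay between 0.26 and 0.33 over all 12) and with no filter (0.25, adjusted p = 0.313). The rises of Serpine2 and F13a1 were larger, the falls of F3, F2r and Thbd smaller, and the rise of Plau smaller in Pear1-/-. For Plaur the value of -0.48 did not pass (adjusted p = 0.147), but it was -0.94 without WT vehicle replicate 2 (adjusted p = 1.18e-11). The value for Plat was 0.35 without that library (adjusted p = 0.00069).

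**Figure D3:**
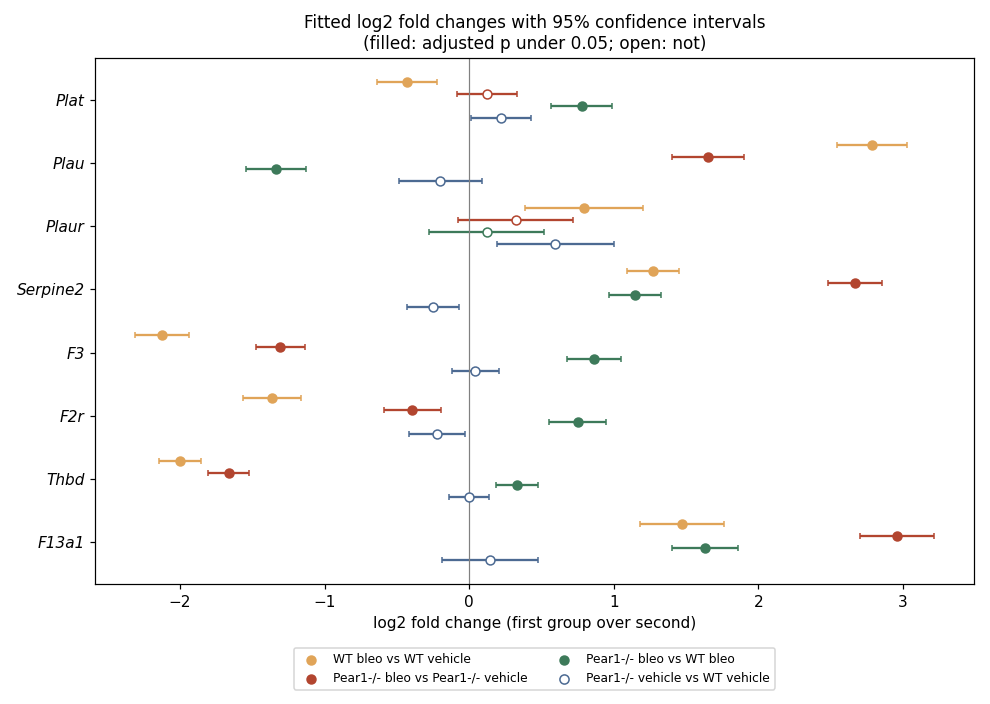
Fitted log2 fold changes (x axis) of the 8 members (y axis) in 4 comparisons, with 95% confidence intervals; filled points have an adjusted p under 0.05. After bleo, 6 members are higher in Pear1-/- than in WT and Plau is lower, and all 8 vehicle values are open.

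Between the vehicle groups, 0 of 8 members passed edgeR's test, against 0.855% of all genes higher and 3.65% lower in Pear1-/-. At an unadjusted p under 0.05 there were 4 (Serpine2, Plat, Plaur and F2r), DESeq2 called 1 (Serpine2), limma called 1 (Plaur) with a pseudocount of 1 and 0 with 0.5, and edgeR with no filter called 2 (Plat and Plaur). The nearest to the threshold were Plaur (log2 fold change 0.60, adjusted p = 0.0576) and Serpine2 (-0.25, adjusted p = 0.0628). This count rests on 1 library. Without WT vehicle replicate 2, 4 members passed, with Plaur at 1.05 (adjusted p = 4.06e-16), Plat at 0.42 (7.36e-07 as the adjusted p), Serpine2 at -0.28 (1.7e-05) and F2r at -0.25 (0.000184). In that fit 25.5% of the 20405 genes tested were higher and 29.7% lower in Pear1-/-, so the 2 members higher and 2 lower were near the share of all genes.

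On a per-length scale, F2r was the most abundant member in vehicle, at 124 CPM per kilobase in WT (range 106 to 135) and 106 in Pear1-/- (104 to 111). Thbd came next, at 100.2 and 99.97. In WT vehicle Plaur, Serpine2 and F3 followed at 35.1, 33.7 and 32.7 with overlapping ranges. Plaur was at 51.0 in replicate 2 and at 26.4 and 27.9 in the others, and without replicate 2 the order was Serpine2 (36.2), F3 (32.04) and Plaur (27.1). Next in WT vehicle were Plat at 26.3, Plau at 4.78 and F13a1 at 0.934. After bleo the order opened with Serpine2, at 81.4 in WT (80.4 to 82.4) and 180 in Pear1-/- (178 to 182). In WT bleo Plaur (61.1), F2r (48.2), Plau (32.9), Thbd (25.1), Plat (19.5), F3 (7.49) and F13a1 (2.62) followed without overlap between neighbours. In Pear1-/- bleo the order was F2r (81.1), Plaur (66.4), Plat (33.4), Thbd (31.6), F3 (13.6), Plau (13.04) and F13a1 (8.11), and only F3 and Plau overlapped.

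Genes with the most similar pattern were ranked by the root mean square difference of centred log2 CPM over the 12 libraries, among 5312 genes. The nearest to Serpine2 was Postn, a matrix protein of activated fibroblasts (0.134), and Postn was also the nearest to F13a1 (0.227). F13a1 was next most like P4ha3 (0.251) and Timp1 (0.304), a collagen prolyl hydroxylase and a metalloproteinase inhibitor. Plau was most like Pld4 (0.117), the macrophage marker Cd68 (0.141) and Pilra (0.142). F2r was most like Ednra, an endothelin receptor (0.0693), Thbd most like Spry1, an inhibitor of growth factor signalling (0.0672), F3 most like Fmo1 (0.123), and Plat most like Copg1, a coat protein of secretory vesicles (0.0428). For Plaur the nearest was Rpl36al, a ribosomal protein gene (0.134). The libraries share their groups, and these values are descriptions with no test.

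Another 45 genes of the same pathways were listed, and 30 had enough counts to be tested. The other 15 included Plg, the plasminogen gene, and all 3 fibrinogen chains, and reached at most 28 counts in a library. In WT, 9 of the 30 rose and 13 fell with bleo, and in Pear1-/- also 9 rose and 13 fell, against the shares of all genes given above (31.4% and 36.6% in WT, 28.9% and 33.4% in Pear1-/-). Their median log2 fold change was -0.19 in WT and -0.05 in Pear1-/-, beside -0.07 and -0.05 over all genes. Between the bleo groups 10 were higher and 5 lower in Pear1-/-, against 22.1% and 23.9% of all genes. By the interaction test the response to bleo was higher in 9 and lower in 4 in Pear1-/-, against 17.9% and 19.1%. With all 12 libraries the genes among these included Mrc2 (1.23), Tfpi2 (0.76), Tfpi (0.68), Pros1 (0.50), Anxa2 (0.48), F7 (-2.02), Procr (-1.28) and Vwf (-0.43), each value a difference in log2 change with an adjusted p between 1.56e-05 and 0.0176. The F7 value was -2.97 without WT vehicle replicate 2 (adjusted p = 1.66e-08). Without WT vehicle replicate 2, which let 35 of the listed genes be tested, 11 rose and 18 fell in WT (31.7% and 44.7% of all genes), and the response was higher in 11 and lower in 7 (20.4% and 26% of all genes). The 5 genes tested only in that fit were Plg, Serpinf2, Cpb2, F2 and Fgg. They passed the limit on counts through the WT vehicle libraries that were kept, where they were highest (Plg had 11 and 10 counts there, 1 in WT vehicle replicate 2, 0 to 2 in Pear1-/- vehicle and 0 in every bleo library), so their 5 lower calls in WT are no support for a fall. The higher responses of F2 (4.51) and Serpinf2 (2.54), which are among the 11, rest on the same libraries and are no support for a difference. With all 12 libraries, Serpinb2 passed the limit on counts through Pear1-/- bleo alone and F13b through WT vehicle alone. Their calls, which are within the counts above, are no support either.

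Of the 9 other genes listed for plasminogen activation and its inhibitors only 3 could be tested. Of these, 1 rose and 1 fell in WT (31.4% and 36.6% of all genes), 2 rose and 1 fell in Pear1-/- (28.9% and 33.4%), and 2 were higher and 0 lower in Pear1-/- bleo than in WT bleo (22.1% and 23.9%), too few genes to read against those shares. Those higher include Serpinb2, at 0 CPM in Pear1-/- vehicle, 0.346 to 0.694 in WT bleo and 3.78 to 5.65 in Pear1-/- bleo. It passed the filter on low counts only through Pear1-/- bleo, so its higher calls are no support for a rise. Serpini1, which encodes neuroserpin, fell by 0.85 on the log2 scale in Pear1-/- (adjusted p = 0.00206). In WT its log2 fold change was -0.53 (adjusted p = 0.0454), but this call rested on WT vehicle replicate 2, at 119.7 normalized counts beside 57.0 and 66.4 in the other WT vehicle libraries. Without that library the value was -0.06 (adjusted p = 0.78).

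Genes that bind plasminogen or clear proteases at the cell surface differed in direction. Of 7 tested, 2 rose and 2 fell in WT (31.4% and 36.6% of all genes), 4 rose and 1 fell in Pear1-/- (28.9% and 33.4%), and 4 were higher and 1 lower in Pear1-/- bleo than in WT bleo (22.1% and 23.9%). With all 12 libraries the counts in WT were no higher than the shares of all genes. Without WT vehicle replicate 2, Anxa2 and S100a10 also passed edgeR's test as higher in WT bleo. Their log2 fold changes were 0.25 and 0.33 (adjusted p = 6.6e-05 and 1.6e-05), and 31.7% of all genes were higher in that fit. Mrc2, a collagen uptake receptor that associates with the urokinase receptor, was counted at 1336 ± 235 in WT vehicle, 858 ± 27.6 in WT bleo, 1100.0 ± 69.8 in Pear1-/- vehicle and 1661 ± 27.3 in Pear1-/- bleo. It fell in WT (log2 fold change -0.63, adjusted p = 8.59e-05) and rose in Pear1-/- (0.60, adjusted p = 0.000149). The difference between these responses was 1.23 (adjusted p = 1.56e-05). Anxa2 and S100a10, which together form a plasminogen receptor, were higher in Pear1-/- bleo than in WT bleo by 0.57 and 0.45 (adjusted p = 7.12e-06 and 0.00375). Plgrkt, another plasminogen receptor, rose in both genotypes, by 0.88 and 0.56 on the log2 scale (adjusted p = 1.63e-05 and 0.000935). Eno1 rose by 1.31 and 1.59 (adjusted p = 1.27e-10 and 2.25e-11), but these values are uncertain, since its near copy Eno1b can share its reads.

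The vitamin K dependent factors F7 and F10 rose in both genotypes. F7, the partner of tissue factor, was at 7.28, 27.4 and 9.16 in WT vehicle, and at 368, 391 and 404 in WT bleo. In Pear1-/- mice it went from 20.8, 22.3 and 48.0 to 182, 199 and 179. The log2 fold change of F7 was 4.67 in WT (adjusted p = 1.09e-09; 5.61 without WT vehicle replicate 2), 2.65 in Pear1-/- (adjusted p = 3.79e-07) and -1.07 between the bleo groups (adjusted p = 0.000245). F10 rose by 2.67 and 2.32 (adjusted p = 1.49e-10 and 8.56e-10). The macrophage markers given above were also highest in WT bleo and their part in the F7 values was not tested. Of the 8 clotting factors tested, 3 rose and 4 fell in WT (31.4% and 36.6% of all genes), 2 rose and 5 fell in Pear1-/- (28.9% and 33.4%), and 0 were higher and 3 lower in Pear1-/- bleo than in WT bleo (22.1% and 23.9%). Among those that fell was Tgm2, a tissue transglutaminase related to factor XIII (-0.91 in WT and -0.89 in Pear1-/-, adjusted p = 2.88e-07 and 5.02e-07). F13b, also among them, was at 1.48 to 4.01 CPM in WT vehicle, 0.368 to 0.744 in Pear1-/- vehicle and 0 in every bleo library. It passed the filter on low counts only through WT vehicle, where it was highest, so its lower calls are no support for a fall. Vwf, the platelet adhesion protein of endothelium, fell in Pear1-/- (-0.64, adjusted p = 2.7e-05) and was lower in Pear1-/- bleo than in WT bleo (-0.44, adjusted p = 0.0011).

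Of 7 anticoagulants tested, 2 rose and 4 fell in WT (31.4% and 36.6% of all genes), 1 rose and 4 fell in Pear1-/- (28.9% and 33.4%), and 3 were higher and 1 lower in Pear1-/- bleo than in WT bleo (22.1% and 23.9%). Tfpi, which blocks tissue factor with factor VII, fell in WT (-0.77, adjusted p = 1.06e-06), and was 0.58 higher in Pear1-/- bleo on the log2 scale (adjusted p = 4.45e-05). Tfpi2, a related inhibitor that also blocks plasmin, rose by 0.46 in WT and 1.22 in Pear1-/- (adjusted p = 0.00987 and 8.35e-07). Pros1, the protein S gene, fell in WT (-0.36, adjusted p = 0.000346) and was 0.47 higher in Pear1-/- bleo (adjusted p = 5.68e-05). Procr, the endothelial protein C receptor, went the other way, with 138 ± 18.3 counts in WT vehicle, 272 ± 11.4 in WT bleo, 167 ± 13 in Pear1-/- vehicle and 135 ± 13.2 in Pear1-/- bleo. The log2 fold changes of Procr were 0.98 in WT, -0.30 in Pear1-/- and -1.02 between the bleo groups (adjusted p = 1.38e-06, 0.0302 and 1.65e-06).

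In the vitamin K cycle, 1 of 3 genes fell in WT and 2 fell in Pear1-/- (36.6% and 33.4% of all genes). Ggcx, the carboxylase that activates the vitamin K dependent factors, was counted at 938 ± 41.1 in WT vehicle, 415 ± 17.5 in WT bleo, 951 ± 31.4 in Pear1-/- vehicle and 464 ± 1.46 in Pear1-/- bleo. In the same order of genotypes the log2 fold change of Ggcx was -1.16 and -1.03 (adjusted p = 7.77e-10 and 4.25e-09). Vkorc1l1 fell in Pear1-/- (-0.40, adjusted p = 0.0144). Of the other thrombin and trypsin receptors, F2rl2 rose and F2rl1 fell in WT, both at low counts, and F2rl1 was higher in Pear1-/- bleo than in WT bleo. F2rl1 and F2rl2 are named although their level was below the limit for naming genes, since they are all that was tested of that group. Between the vehicle groups 0 of the 30 pathway genes passed edgeR's test, and 9 had an unadjusted p under 0.05. DESeq2 called 3, and limma called 1 with a pseudocount of 1. Without WT vehicle replicate 2, 8 of the 35 tested were higher and 11 lower, against 25.5% and 29.7% of all genes in that fit. The 11 include Plg, Serpinf2, Cpb2, F2 and Fgg. These genes reached that fit through the kept WT vehicle libraries, so their lower calls are no support for a difference.

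**Figure D4:**
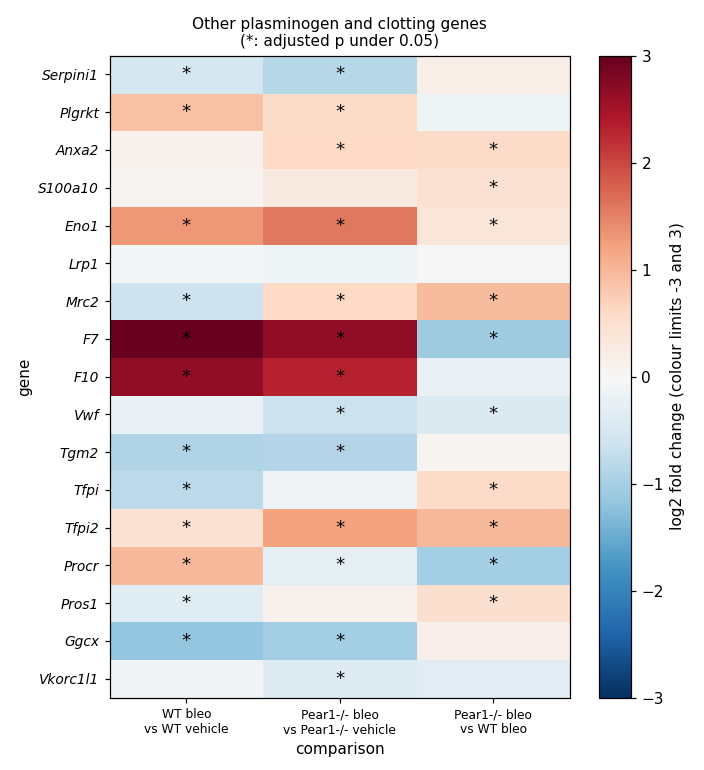
Log2 fold changes of 17 other pathway genes whose mean log2 CPM reached 3 (rows), in 3 comparisons (columns); red is higher and blue lower in the first group, and a star marks an adjusted p under 0.05. F7 and F10 have the deepest red in both bleo comparisons, and Mrc2 and Procr change sign between the genotypes.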

How the data were processed

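Full-length cDNA was made from the sorted cells with a SMART-Seq kit for small amounts of RNA, and the authors used HISAT2 to map the reads on GRCm38. The annotation and the program that counted reads are not given in the sources used here, nor whether strand was used. The deposited raw table holds whole-number counts per gene and library. The deposited normalized table holds a signal, which was checked to be the count divided by 1 size factor per library, as DESeq2 computes it; the text calls it a normalized count. Log2 fold changes, SEs and p-values came from edgeR 4.0.16 (R 4.3.3): TMM, its filter on low counts, 1 mean per group over all 12 libraries, quasi-likelihood tests and Benjamini-Hochberg adjustment over 17418 genes, tested on simulated data. Confidence intervals use 8 residual degrees of freedom. Levels per kilobase are TMM CPM over merged GENCODE M21 exons.

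The members and the lists of other genes were chosen with earlier results of these data known. Other pathway genes were named when their mean log2 CPM was at least 3 and their adjusted p was under 0.05, at most 6 per direction and comparison. For likeness, genes whose mean log2 CPM reached 5 entered. Alternatives were DESeq2 1.42.0, limma 3.58.1 on log2 of the normalized value plus 1 or 0.5, RLE scaling, no filter, the replicate number as a block, the 2 groups alone, and each library left out. Floors of 3 counts cover counting error only. The values of 1 listed pathway gene, which is in the counts, are not reported here.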

Additional observations from a re-analysis of the deposited data

Results flagged for a closer look

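The change with bleo differed between the genotypes, by the test of the difference itself, for 7 members. The log2 difference (Pear1-/- minus WT) was 1.48 for F13a1, 1.40 for Serpine2, 0.97 for F2r, 0.82 for F3, 0.56 for Plat, 0.33 for Thbd and -1.14 for Plau. For Thbd the values lay between 0.26 and 0.33 when single libraries were left out, and 8 of the 12 did not pass the test.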

How the results depend on the processing

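The 40 log2 fold changes of the members were recomputed under the alternatives, giving 560 values, of which 527 kept their direction and their side of the threshold. Of the others, 13 came to pass it, 9 no longer passed it, all of them the Thbd difference in response, and 11 turned direction. The turned values were all in the vehicle comparison and none passed the test. Thbd, at -0.00 with all libraries, was 0.0948 with no filter, 0.003014 with DESeq2, 0.002904 with limma at either pseudocount and between 0.001412 and 0.057864 when 1 library was left out, and F13a1 was between -0.009463 and 0.39 when 1 library was left out. The members called in the vehicle comparison numbered 0, but 2 with no filter, 1 with DESeq2, 1 with limma at a pseudocount of 1, and 0 to 4 when 1 library was left out. The other pathway genes called there numbered 0, but 7 with no filter, 3 with DESeq2, 1 with limma at a pseudocount of 1 and 0 to 19 when 1 library was left out, where 35 rather than 30 were tested without WT vehicle replicate 2. The cause was not tested. Of the genes named, the fall of Serpini1 in WT (-0.53) no longer passed without WT vehicle replicate 2 (-0.06, adjusted p = 0.78). In that fit Anxa2 and S100a10 came to pass as higher in WT bleo (0.25 and 0.33), and Vwf as lower (-0.18). The replicate numbers gave no clear sign of pairing: over 18 same-numbered pairs the correlation of deviations lay between -0.29 and 0.18 and passed 0.1 in 2. In WT vehicle the deviations follow replicate 2, so these values cannot exclude pairing. With the replicate block, 8, 6, 7, 0 and 7 members were called in the order WT response, Pear1-/- response, bleo groups, vehicle groups and difference in response, as without it, and 21, 23, 15, 0 and 13 other pathway genes. With all 12 libraries, genes under the filter, such as Plg, were not tested.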
